A study of Mus musculus with 23 samples.

Results

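Neutrophils carry their antimicrobial proteins in granules, and 10 genes of that program were followed here by their symbols among the 24475 genes of the table. They were 4 early genes, whose products fill the primary granules (Elane, Mpo, Prtn3 and Ctsg), 4 late genes of the secondary and later granules (Ltf, Camp, Ngp and Lcn2), and the S100 pair S100a8 and S100a9. RNA was sequenced from 23 mice. Normal C57BL/6 animals gave 6 thymus controls. The remaining 17 samples were spleens of BALB/c hosts lacking Rag2 and Il2rg (Rag2-/-Il2rg-/-) with T-cell acute lymphoblastic leukemia (T-ALL), which arose after a newborn thymus lobe was grafted under the kidney capsule. The donor thymus was wild type in 14 of them (WT T-ALL), from the CD45.1 congenic line B6.Ly5.1, and lacked Notch3 in the other 3 (Notch3 KO T-ALL), through a β-galactosidase insertion in the first coding exon. The background of the Notch3 KO donors and the age of the control mice were not given in the sources used here. By the study's text each sample was 1 mouse. Tissue, host strain and disease part with the groups in both comparisons with thymus and cannot be told apart there. Hosts without Rag2 and Il2rg lack lymphocytes but keep the myeloid lineages, and the values do not part host RNA from donor RNA.

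Granulocytes make their granules in an order. Promyelocytes transcribe the primary granule genes, myelocytes and metamyelocytes then transcribe the secondary granule genes, and mature neutrophils carry the proteins of both while the messages fade. S100A8 and S100A9, which pair as calprotectin, fill the cytosol of neutrophils and monocytes. The balance of early and late messages is therefore used to read the stage of granulopoiesis in a tissue, and the spleen of mice is known as one site of it.

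Several members lie side by side in the genome (assembly GRCm38.p6). Elane (gene 50701, chromosome 10, 79886312 to 79888216) encodes neutrophil elastase, and Prtn3 (gene 19152, chromosome 10, 79879667 to 79883174) encodes the related serine protease proteinase 3. They are 3137 bases apart with no gene between them. Mpo (gene 17523, chromosome 11, 87793784 to 87804412) encodes myeloperoxidase, which makes hypochlorous acid, and Ctsg (gene 13035, chromosome 14, 56099885 to 56102574) encodes cathepsin G. Of the late genes, Ltf (gene 17002, chromosome 9, 111019292 to 111042766) encodes the iron binder lactoferrin, Camp (gene 12796, chromosome 9, 109847377 to 109849456) the cathelicidin peptide, and Ngp (gene 18054, chromosome 9, 110419808 to 110423012) neutrophilic granule protein. Lcn2 (gene 16819, chromosome 2, 32384637 to 32387739) encodes lipocalin 2, which binds bacterial siderophores. S100a8 (gene 20201, chromosome 3, 90669071 to 90670034) and S100a9 (gene 20202, chromosome 3, 90692630 to 90695721) are 22595 bases apart, also with no gene between them.

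The members moved together across tumors, as the correlations given further on show. The 250 bases before each start site, taken from RefSeq on GRCm38.p6 (10 of 10 members matched), were searched on both strands for letters of 2 granulocyte factors. GAGGAA, the core bound by PU.1 (encoded by Spi1), was present before 4 of 4 early genes, 2 of 4 late genes (Ltf and Lcn2) and S100a8, and before 23.3% of all 32841 promoters of that length. TTNNGNAA, a loose form of the letters bound by C/EBP factors, was present before 0 of 4 early genes, 3 of 4 late genes (Ltf, Ngp and Lcn2) and both S100 genes, and before 36.9% of all promoters. Its stricter form TTGCNNAA, every match of which also matches TTNNGNAA, was present before Ltf, Ngp, Lcn2 and S100a9 and before 9.57% of all promoters. Camp held neither set of letters in this window. A match is a description of the letters and no evidence of binding. The neighbours Elane at chr10:79886062-79886311 (plus strand) and Prtn3 at chr10:79879417-79879666 (plus strand) are shown as early genes, Ngp at chr9:110419558-110419807 (plus strand) and Lcn2 at chr2:32387740-32387989 (minus strand) as the late genes that changed most, and S100a9 at chr3:90695722-90695971 (minus strand) as the member with the highest mean in WT T-ALL and thymus. Each runs 5′ to 3′ along its own gene, with the matches to GAGGAA or TTNNGNAA on either strand in capitals.
Elane: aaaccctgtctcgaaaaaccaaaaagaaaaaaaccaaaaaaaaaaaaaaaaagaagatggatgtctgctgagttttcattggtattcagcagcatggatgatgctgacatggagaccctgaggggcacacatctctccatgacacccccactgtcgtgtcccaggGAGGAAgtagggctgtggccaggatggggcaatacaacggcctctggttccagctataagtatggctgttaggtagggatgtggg
Prtn3: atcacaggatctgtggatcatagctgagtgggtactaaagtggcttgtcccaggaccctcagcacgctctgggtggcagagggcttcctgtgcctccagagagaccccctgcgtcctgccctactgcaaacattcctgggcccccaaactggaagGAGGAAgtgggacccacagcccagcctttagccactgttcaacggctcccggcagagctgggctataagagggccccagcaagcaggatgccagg
Ngp: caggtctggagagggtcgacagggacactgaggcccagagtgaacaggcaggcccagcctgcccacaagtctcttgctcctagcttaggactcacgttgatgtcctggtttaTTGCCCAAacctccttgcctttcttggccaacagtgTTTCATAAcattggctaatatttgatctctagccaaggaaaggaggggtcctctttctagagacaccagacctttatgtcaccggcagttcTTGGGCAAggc
Lcn2: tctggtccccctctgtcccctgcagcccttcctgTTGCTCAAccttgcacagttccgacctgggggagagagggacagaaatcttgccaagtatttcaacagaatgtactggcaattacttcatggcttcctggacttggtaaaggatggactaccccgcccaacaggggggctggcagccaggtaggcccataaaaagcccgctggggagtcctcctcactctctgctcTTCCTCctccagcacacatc
S100a9: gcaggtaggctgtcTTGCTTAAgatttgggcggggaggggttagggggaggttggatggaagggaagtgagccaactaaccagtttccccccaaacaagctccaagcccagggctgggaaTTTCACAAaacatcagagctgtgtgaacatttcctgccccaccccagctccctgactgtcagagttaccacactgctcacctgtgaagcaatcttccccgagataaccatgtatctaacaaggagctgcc
In Elane the match began 85 bases before the start site and in Prtn3 95 bases before it. Ngp held 3 C/EBP matches, at 138, 102 and 11 bases before the start.

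All values below are log2(scaled RPKM + 1) unless RPKM is named, where RPKM is reads normalised for transcript length and library size, scaled to the same 75th percentile in every library. Values are per length, so levels of different genes can be set side by side. The offset of 1 is in the deposited values and shrinks differences where a gene is near 0, as the early genes are in thymus. Libraries are called by the number in their label.

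From 10154 to 11011 genes reached a scaled RPKM of 1 in each library. The paper gives an approximate number of reads per sample, but not the depth of each library. The share of all RPKM that fell to mitochondrial genes ranged from 6.64% to 22.5% for thymus, from 9.84% to 44.5% for WT T-ALL (highest in library 7) and from 11.2% to 19.6% for Notch3 KO T-ALL, and its part in the results was not tested. Notch3 itself ran from 2.59 to 3.74 in Notch3 KO T-ALL. Its range was 3.17 to 5.78 for WT T-ALL and 2.62 to 4.29 for thymus, and an insertion in the first coding exon need not remove reads downstream of it. T lineage genes (10 genes, Rag1, Cd8b1, Cd3d, Cd3e and others) summed to 4861 to 6641 RPKM in thymus. The WT T-ALL sums were 1205 to 3235 and those of Notch3 KO T-ALL 1701 to 2369. The genes of this list did not move alike. Mean levels in thymus and WT T-ALL were 10.09 and 6.46 for Rag1 and 9.63 and 6.44 for Cd8b1. Those of Cd3d were 8.07 and 8.13, and those of Cd3e 7.92 and 7.76. The libraries also fell into 2 sets that the labels do not name, seen in the splicing factor gene Srsf4 (5.93 or above in set A, 5.11 or below in set B). Set A held thymus 5 and 6, WT T-ALL 3, 4, 5 and 7 and all 3 Notch3 KO T-ALL, and set B the other 4 thymus and 10 WT T-ALL. Values within sets are given beside the comparisons.

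The first comparison, WT T-ALL against thymus, asked how far this myeloid program differed between the leukemic spleens and normal thymus. In WT T-ALL 10 of 10 members were higher than in thymus, at adjusted p from 0.000194 to 0.00128 (limma, Benjamini-Hochberg adjusted over all genes), against 29.3% of all 11919 genes tested called higher and 51.6% called in either direction. The median change of the members was 3.82 on the log2 scale and that of all genes 0.08. All 10 passed the filter on low values, which asks for an RPKM of 1 in 3 libraries. Elane, Prtn3 and Ctsg passed through the leukemic libraries alone, since Elane reached that level in 1 thymus library and the other two in 0, so a rise of these 3 was favoured by the filter. Without a filter 10 of 10 members were called as well. By size of rise they ranked from 12 (Lcn2) to 60 (Ctsg) of 11919. In 7 of 10 members each of the 14 WT T-ALL libraries lay above each of the 6 thymus libraries, which was so for 8.42% of genes tested. A bulk library cannot part more cells of a type from more RNA per cell.

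**Figure D1:**
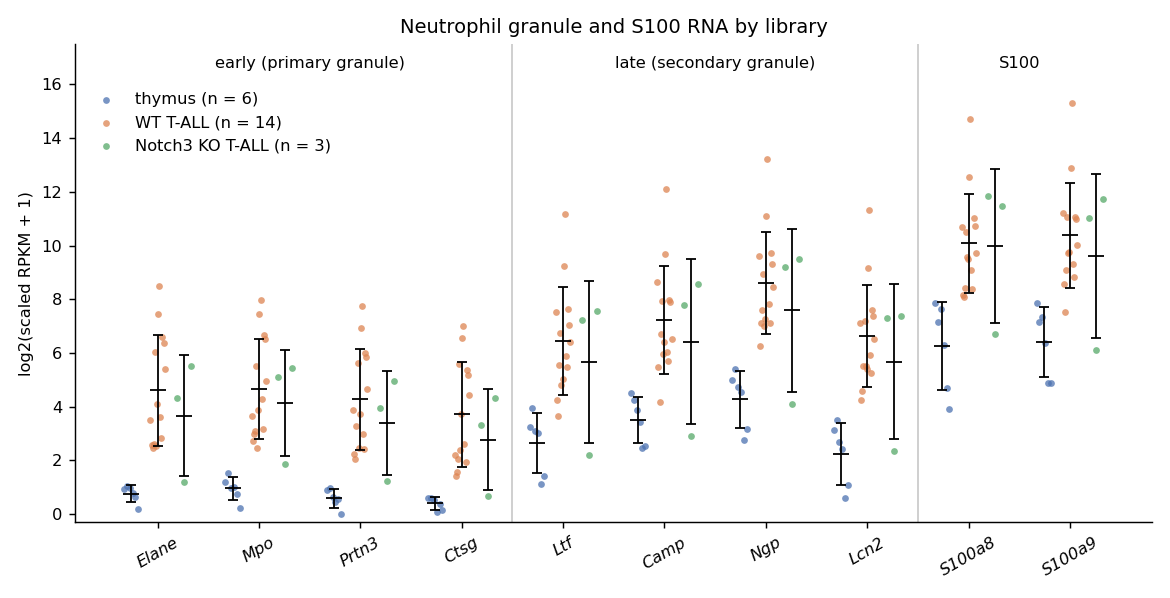
Level of each member, as log2(scaled RPKM + 1), in each of 6 thymus (blue), 14 WT T-ALL (orange) and 3 Notch3 KO T-ALL (green) libraries, with the mean and SD of each group as black bars. In thymus the early genes lie at 1.54 or below, the late genes at 0.61 to 5.40 and the S100 genes at 3.92 to 7.88, and WT T-ALL 110 is the highest point of every gene.

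The early genes were barely present in thymus. Elane read 0.96, 1.06, 0.98, 0.78, 0.65 and 0.18 in thymus 1 to 6, and its lowest, median and highest level in WT T-ALL were 2.46, 3.85 and 8.50. The groups did not overlap, and the rise was 3.84 ± 0.82 (SE), with an adjusted p of 0.00054 by limma. Mpo read 1.20, 1.54, 0.99, 1.03, 0.75 and 0.25 in thymus 1 to 6, against 2.45, 4.08 and 7.98 (lowest, median, highest) in WT T-ALL, a rise of 3.71 ± 0.74. Prtn3 was listed at 0 in thymus 6 and reached 0.99 at most in thymus, whereas WT T-ALL ran from 2.06 over a median of 3.80 to 7.77, a rise of 3.69 ± 0.74. Ctsg, the member with the lowest mean in every group, stayed at 0.10 to 0.62 in thymus and ran from 1.41 to 6.99 in WT T-ALL with a median of 3.16, a rise of 3.32 ± 0.76. In linear terms the median RPKM of Elane was 13.6 in WT T-ALL and 0.826 in thymus, a ratio of 16.5, and the ratios of Mpo, Prtn3 and Ctsg were 15.9, 25.8 and 23.1.

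The late genes started from a higher mean level in thymus and rose by 3.72 to 4.38 on this scale, where the early genes rose by 3.32 to 3.84. Ngp, with 5.01, 5.40, 4.73, 4.56, 2.75 and 3.17 in thymus 1 to 6, ran from 6.28 over a median of 8.14 to 13.23 in WT T-ALL. The groups did not overlap, and the rise was 4.34 ± 0.85 at an adjusted p of 0.000225 (limma). Lcn2 went from 0.61 to 3.52 in thymus, with a median of 2.57, to 4.26 to 11.33 in WT T-ALL, with a median of 6.22, a rise of 4.38 ± 0.84. Both were at the smallest p an exact two-sided permutation test of 14 against 6 libraries can give, 2.58e-05. Ltf (1.14 to 3.94 in thymus, against 3.66 to 11.18 in WT T-ALL) and Camp (2.46 to 4.49, and 4.17 to 12.10) rose by 3.81 ± 0.89 and 3.72 ± 0.87. In both, WT T-ALL 5 was the single WT T-ALL library inside the thymus range. The ratio of median RPKM was 15.2 for Lcn2, 11.96 for Ngp, 9.56 for Ltf and 8.33 for Camp, each below the ratio of every early gene.

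The S100 pair was the most abundant in every group. S100a8 read 7.88, 7.14, 7.62, 6.29, 4.69 and 3.92 in thymus 1 to 6 and ran from 8.10 over a median of 9.65 to 14.71 in WT T-ALL, a rise of 3.82 ± 0.87 with no overlap. S100a9 read 7.86, 7.17, 7.35, 6.37, 4.87 and 4.87 in thymus and 7.54, 9.89 and 15.31 (lowest, median, highest) in WT T-ALL, a rise of 3.96 ± 0.89, with WT T-ALL 5 inside the thymus range. By the exact permutation test p was 5.16e-05 for S100a8, 7.74e-05 for S100a9 and 0.00111 at most for the 10 members (Ctsg), unadjusted.

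The thymus libraries themselves differed in these genes. Thymus 5 and 6, the set A controls, held the lowest late and S100 levels, with a mean over the 4 late genes of 1.74 and 2.05 against 3.36 to 4.28 in the other 4. Within set B (10 against 4 libraries) the 10 members were higher in WT T-ALL by 3.34 (S100a8) to 4.40 (Elane), at exact p from 0.000999 to 0.005. Within set A (4 against 2) they were higher by 1.54 (Ctsg) to 4.69 (Ngp) with no overlap for 10 of 10, but the same was so for 28.1% of all genes tested, and 4 against 2 libraries cannot give an exact p below 0.0667. The early genes differed between the sets within WT T-ALL too. Their mean level was 2.23 to 3.31 in the 4 set A libraries and 2.46 to 7.81 in the 10 of set B, and the part of the set in these values was not tested.

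The second comparison, Notch3 KO T-ALL against thymus, asked the same of leukemias without Notch3. Higher levels passed the limma test for 5 of 10 members, against 21.2% of genes called higher and 37.5% called at all. They were Mpo (3.19 ± 1.07, adjusted p = 0.0231 by limma), Prtn3 (2.80 ± 1.07, 0.0427), Ngp (3.32 ± 1.23, 0.0368), Lcn2 (3.43 ± 1.22, 0.0307) and S100a8 (3.74 ± 1.26, 0.0232). Without the filter on low values the calls of Prtn3 (adjusted p = 0.0638 by limma) and Ngp (0.0554) were lost. The other 5 had changes of 2.37 (Ctsg) to 3.20 (S100a9) with adjusted p from 0.0532 to 0.0935 (limma). The exact permutation test divided the members differently. It put 4 of 4 early genes at 0.0119, the smallest value 3 against 6 libraries allow, and the late and S100 genes at 0.0595 or 0.0714. A lack of overlap, found for those 4 early genes and no other member, was found for 23.9% of all genes tested. Without Notch3 KO T-ALL 2 limma called 10 of 10 members and without Notch3 KO T-ALL 1 or 3 it called 0. Leaving out thymus 5 or thymus 6 left 2 and 1 called. Within library set A (3 against 2) the members were higher by 2.5 (Ctsg) to 5.69 (S100a8) with no overlap for 10 of 10, against 35.5% of all genes tested, and no exact p below 0.1 is possible there.

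**Figure D2:**
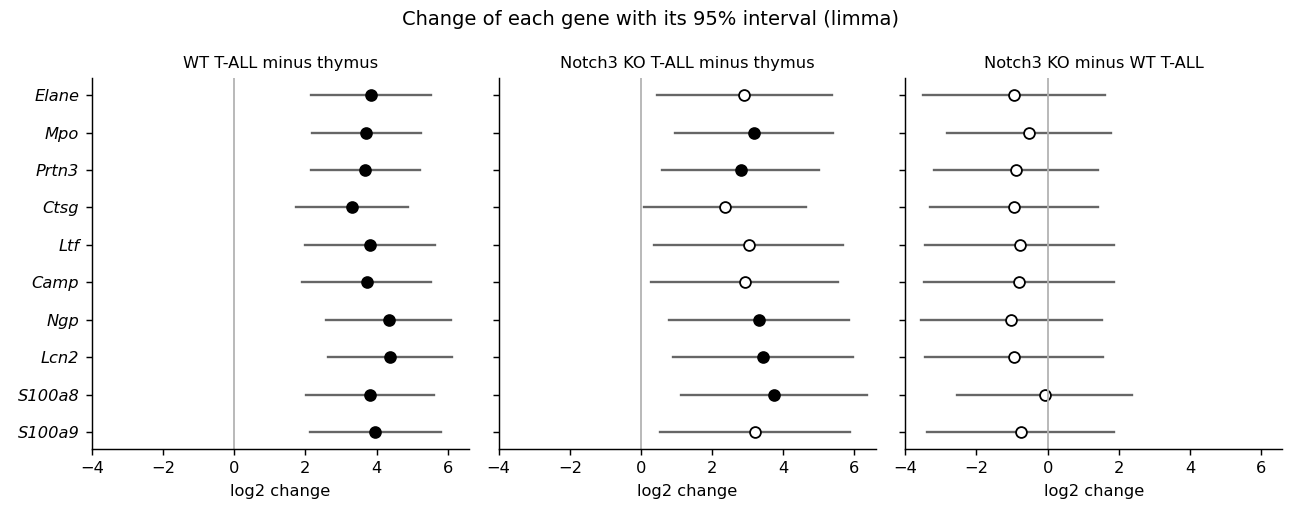
Change of each member on the log2 scale with its 95% interval in the 3 comparisons, from limma, where filled points passed an adjusted p of 0.05 and open points did not. The 10 changes of WT T-ALL against thymus lie between 3.32 and 4.38, 5 of 10 pass for Notch3 KO T-ALL against thymus, and the 10 intervals of Notch3 KO T-ALL against WT T-ALL span 0.

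A single library, Notch3 KO T-ALL 2, set these values apart. Elane read 4.31, 1.19 and 5.53 in Notch3 KO T-ALL 1, 2 and 3. Ngp read 9.19, 4.09 and 9.50 in the same order, and S100a9 11.01, 6.12 and 11.72. Notch3 KO T-ALL 2 was the lowest of all 17 leukemic libraries for 10 of 10 members. Its early genes, at 0.68 (Ctsg) to 1.89 (Mpo), lay above every thymus library, and its 4 late genes and both S100 genes lay inside the thymus range. The early margins were small and near 0. Ctsg was 0.68 against a thymus maximum of 0.62, Elane 1.19 against 1.06, Prtn3 1.25 against 0.99 and Mpo 1.89 against 1.54. Against thymus 5 and 6 alone, the controls of its own library set A, 10 of 10 members lay above. Of the gene lists given further on, 10 of 10 mature neutrophil, 12 of 13 other late granule, 5 of 5 oxidase and 4 of 6 other primary granule genes were lowest there among the 3 Notch3 KO T-ALL, by gaps of very different size. Ly6g, a surface marker of mouse neutrophils, read 0.39 in Notch3 KO T-ALL 2 and 4.06 and 4.37 in the other 2, and Ms4a3, a gene of granulocyte and monocyte progenitors, 0.40 against 2.64 and 3.77, whereas Padi4 read 2.33 against 2.58 and 2.61 and Ctsc 4.35 against 4.83 and 4.31. Summed erythroid RPKM (9 genes) was the highest of all libraries in Notch3 KO T-ALL 2, at 103240.

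The third comparison, between the T-ALL groups, asked whether leukemias from donors with and without Notch3 differed in these genes. No difference was detected: 0 of 10 members passed, against 0.617% of 11677 genes tested. By limma 0 of 10 had an unadjusted p below 0.05, against 8.51% of all genes tested. By the exact permutation test 0 of 10 had one either (0.431 to 0.951). Changes of the mean ran from -1.02 (Ngp, 95% interval -3.56 to 1.53) to -0.09 (S100a8, -2.55 to 2.38), and that of Elane was -0.94 (-3.49 to 1.62), so differences of several fold in either direction lie inside the intervals. The medians pointed the other way. Median RPKM was higher in Notch3 KO T-ALL for 10 of 10 members, by a ratio of 1.04 (Ctsg) to 3.50 (S100a8). Without Notch3 KO T-ALL 2 the differences of the means also became positive for 10 of 10, from 0.10 (Ctsg) to 1.56 (S100a8). Within library set A, where all 3 Notch3 KO T-ALL and 4 WT T-ALL libraries sit, 9 of 10 were positive, from 0.17 (Camp) to 1.14 (S100a8), and Ngp was at -0.06, with exact p from 0.343 to 0.971.

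Within WT T-ALL the level of the program differed widely from tumor to tumor, and the same libraries led throughout. WT T-ALL 110 was the highest and WT T-ALL 108 the next for 10 of 10 members, and the gap between them ran from 0.43 to 2.43. S100a9 at 15.31 (40667 RPKM) and S100a8 at 14.71 (26767 RPKM) were the most abundant and the next most abundant of all genes in WT T-ALL 110. The 10 members together made up 11.01% of the summed RPKM of that library, 2.79% of that of WT T-ALL 108 and 0.114% to 0.981% in the other 12. They made up 0.0114% to 0.0973% in thymus, and 0.865%, 0.0313% and 0.895% in Notch3 KO T-ALL 1, 2 and 3. With the mitochondrial genes left out of the sum the share was 13.1% in WT T-ALL 110 and 3.21% in WT T-ALL 108. At the low end, WT T-ALL 4, 5 or 36 was the lowest WT T-ALL library for every member. Sums of other lineages moved in both directions there. The T lineage genes were lowest of all libraries in WT T-ALL 110, at 1205 RPKM, and its eosinophil genes (7 genes, Epx, Prg2 and others) were highest, at 927 RPKM. Its monocyte genes (4 genes) were also the highest of all libraries, at 161 RPKM, followed by WT T-ALL 108 at 98.3, whereas its megakaryocyte genes (5 genes, Pf4, Ppbp and others) summed to 18.3 RPKM against 200.2 in WT T-ALL 108.

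The members kept nearly the same order of level in every group. By mean level in WT T-ALL S100a9 led, followed by S100a8, Ngp, Camp, Lcn2, Ltf, Mpo, Elane, Prtn3 and Ctsg. Camp was above Ltf, Ngp above Camp and Prtn3 above Ctsg in 14 of 14 WT T-ALL libraries. The neighbours that traded places most often were Mpo and Elane (Mpo higher in 9 of 14) and Lcn2 and Ltf (Lcn2 higher in 9 of 14), and the means of these neighbours differed by far less than their SD between libraries (1.86 to 2.07). Elane was above Prtn3, and Camp above Lcn2, in 12 of 14. In thymus Ltf was above Lcn2 in 6 of 6 libraries. Each late gene was above each early gene in 14 of 14 WT T-ALL, 3 of 3 Notch3 KO T-ALL and 5 of 6 thymus libraries. S100a9 was above S100a8 in 13 of 14 WT T-ALL libraries, in 4 of 6 thymus and in 1 of 3 Notch3 KO T-ALL. The difference, S100a9 minus S100a8, was -0.81, -0.57 and 0.27 in Notch3 KO T-ALL 1, 2 and 3 and -0.56 in WT T-ALL 5. It was -0.01 and -0.27 in thymus 1 and 3. Of the 5 libraries with S100a8 ahead, the 3 leukemic ones were of library set A and both thymus ones of set B.

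Early and late genes were then set against each other library by library. The late mean (Ltf, Camp, Ngp, Lcn2) minus the early mean (Elane, Mpo, Prtn3, Ctsg) was 2.91 ± 0.88 (SD, n = 14) in WT T-ALL, 2.85 ± 1.07 (n = 3) in Notch3 KO T-ALL and 2.49 ± 0.79 (n = 6) in thymus. These group means lie within 1 SD of each other, and no test was made on a score over the members. The thymus value depends on the offset, since its early genes are near 0: with an offset of 0.1 it was 3.62, above the 3.03 of WT T-ALL.

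**Figure D3:**
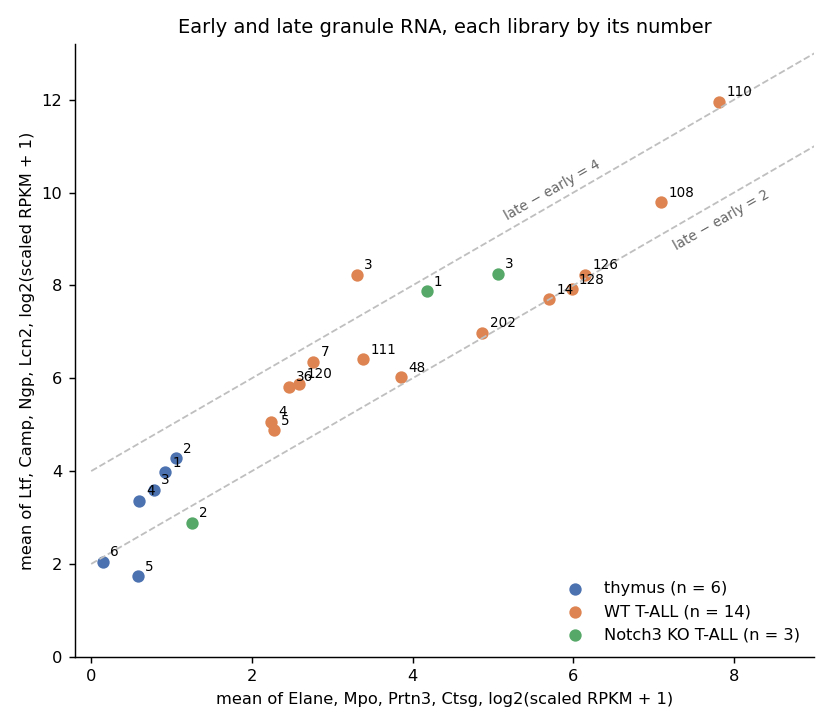
Mean level of the 4 late genes against that of the 4 early genes, both as log2(scaled RPKM + 1), with each library marked by its number and coloured by group. Dashed lines mark a difference of 2 and 4, and WT T-ALL 3 sits above the upper line, far from WT T-ALL 126, which has the same late level.

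Tumors with the same late level could have very different early levels. WT T-ALL 3 and WT T-ALL 126 both had a late mean of 8.23, but early means of 3.31 and 6.15. Elane was 3.51 in WT T-ALL 3 and 6.58 in WT T-ALL 126, Mpo 3.64 and 6.66, Prtn3 3.87 and 6.00, and Ctsg 2.20 and 5.35. Over the same libraries Camp was 8.65 and 7.96, Ltf 7.53 and 7.65, Ngp 9.60 and 9.70, and Lcn2 7.12 and 7.60. Of the other primary granule genes, Ms4a3 was 2.53 and 4.36 and Fcnb, a ficolin made early in granulopoiesis, 3.28 and 4.22, while Prss57 (2.5 and 2.85), Srgn (5.47 and 5.66) and Ctsc (3.82 and 3.78) lay closer together. Of 10 genes of mature neutrophils 8 were higher in WT T-ALL 126, among them Stfa2l1 (2.53 and 5.18), and Ly6g (4.97 and 3.88) and Fpr2 (4.04 and 3.87) were higher in WT T-ALL 3. That list summed to 96.8 RPKM in WT T-ALL 3 and 129 in WT T-ALL 126. WT T-ALL 3 lies in library set A and WT T-ALL 126 in set B.

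In linear units the late genes summed to 38.3 times the early genes in WT T-ALL 3, 19.7 times in WT T-ALL 110 and 15.8 times in WT T-ALL 7. At the other end the ratio was 4.43 in WT T-ALL 128, 4.81 in WT T-ALL 14, 4.95 in WT T-ALL 126, 5.31 in WT T-ALL 202 and 5.72 in WT T-ALL 48. These 5 were all of set B and all had early means of at least 3.85. WT T-ALL 108, with the second highest early level, was intermediate at 7.43. Notch3 KO T-ALL 1, 2 and 3 had ratios of 14.6, 5.09 and 10.7, inside the WT T-ALL range. In thymus the ratio was 5.96 to 35.5 with a median of 18.8, against a median of 9.74 in WT T-ALL. The early genes summed to only 0.44 to 4.51 RPKM in thymus, so its ratios rest on values near 0. The order of these 2 groups was opposite to that of the mean log2 difference above. By its medians that difference was 2.80 in thymus and 2.76 in WT T-ALL. Within set A the late minus early difference ran from 2.62 to 4.92 in WT T-ALL and within set B from 1.93 to 4.15.

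**Figure D4:**
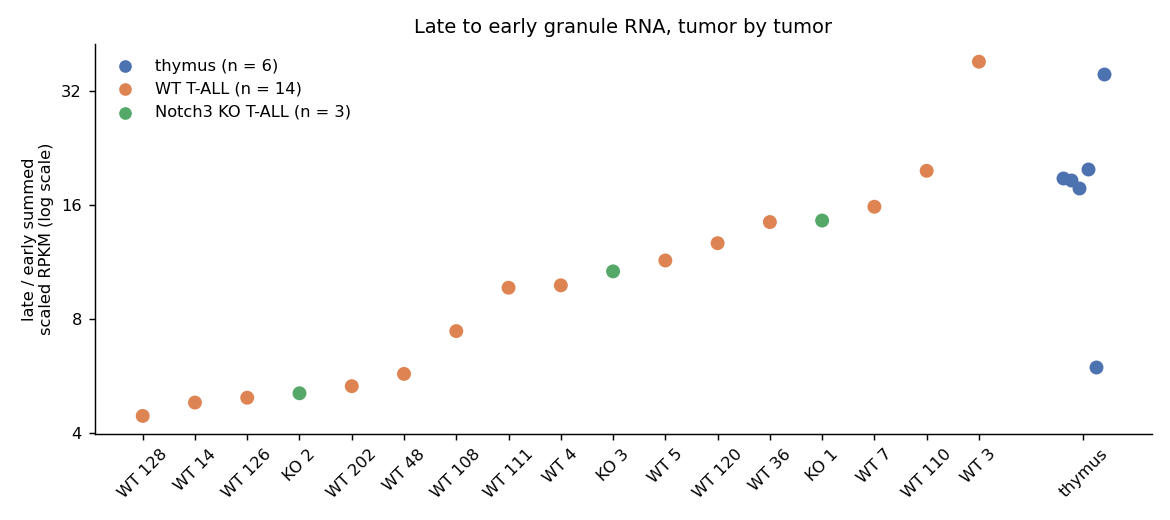
Ratio of the summed RPKM of the 4 late genes to that of the 4 early genes, on a log scale, for each leukemic library in rising order and for the 6 thymus libraries at the right. WT T-ALL runs from 4.43 (library 128) to 38.3 (library 3), with the 3 Notch3 KO T-ALL at 5.09, 10.7 and 14.6 among them, and thymus from 5.96 to 35.5. The thymus ratios divide by early sums near 0 (0.44 to 4.51 RPKM).

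Over the 14 WT T-ALL libraries the members rose and fell together. In 45 of 45 pairs the correlation had an adjusted permutation p of 0.00018 or less for Pearson's r and 0.00087 or less for Spearman's rho (100000 resamples, adjusted over the 45 pairs, smallest p possible 1e-05). An r of 0.809, the lowest of the 45, was reached by 0.537% of all pairs of the 11919 genes over the same libraries. Pearson's r was 0.956 to 0.987 within the early genes (rho 0.912 to 0.982) and 0.958 to 0.990 within the late genes (rho 0.934 to 0.982). Between early and late genes r was 0.809 (Ctsg and Camp) to 0.935 (Prtn3 and Lcn2), with rho of 0.807 to 0.960. The S100 pair had an r of 0.989 with each other, 0.958 to 0.985 with the late genes and 0.852 to 0.917 with the early genes. By r the ranges within the early and within the late genes lay above the range between them, whereas by rho the ranges overlapped, and the ranking of these classes was not tested. Leaving out the 2 libraries farthest from the median lowered the lowest r to 0.645. Within set B (10 libraries) r was 0.858 to 0.997 and rho 0.867 to 1.0, with 45 of 45 pairs at an adjusted p below 0.05, and r was 0.945 to 0.997 within the early genes and 0.872 to 0.938 between early and late genes. The rho of the same classes overlapped, at 0.939 to 0.988 and 0.903 to 1.0. Set A holds 4 WT T-ALL libraries, too few for a correlation. Without WT T-ALL 108 and 110, r within the late genes was 0.875 to 0.969 and between early and late genes 0.645 to 0.911, so those ranges met. Within the early genes r was 0.92 to 0.976, above that range. By rho the early genes (0.86 to 0.972) overlapped with the early and late pairs (0.692 to 0.937).

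**Figure D5:**
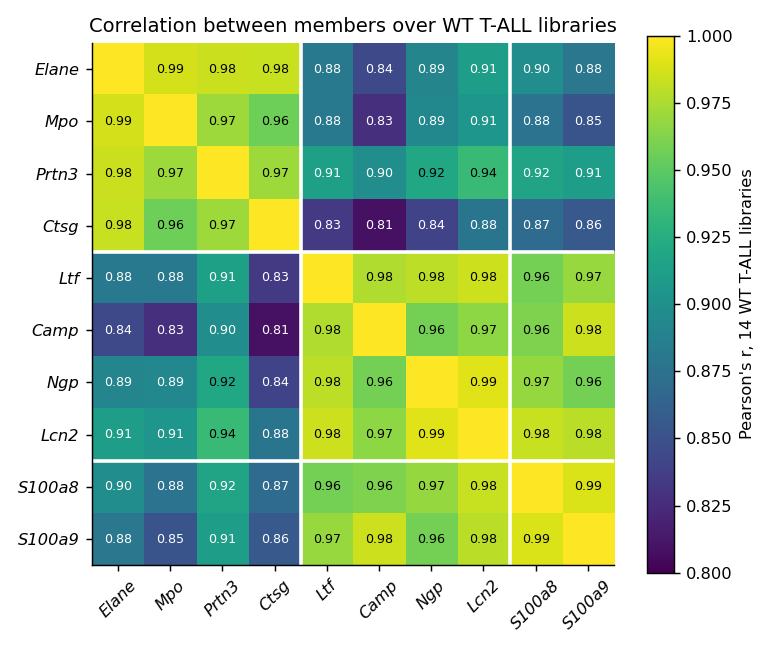
Pearson's r between each pair of members over the 14 WT T-ALL libraries, coloured from 0.8 to 1, with white lines between early genes, late genes and the S100 pair. The early block (0.956 to 0.987) and the joint late and S100 block (0.958 to 0.990) are lighter than the blocks between early and other genes (0.809 to 0.935).

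The genes whose level was most like each set were then found by Pearson's r over the 17 leukemic libraries. They share libraries with the members, and r is given as a description. With the early mean these were Ms4a3 (r = 0.976), Serpinb1a (0.950), which encodes an inhibitor of elastase, cathepsin G and proteinase 3, Fcnb (0.948), Hp (0.940) for haptoglobin, and Napsa (0.932). With the late mean they were Anxa1 (0.983), encoding annexin A1, Pglyrp1 (0.982), a peptidoglycan recognition protein of the granules, Cd177 (0.980), a neutrophil surface protein, Hp (0.980) and Wfdc21 (0.980). With the S100 mean they were Wfdc21 (0.989), Anxa1 (0.984), Hp (0.969), Serpinb1a (0.966) and Chil3 (0.966). Over the 14 WT T-ALL alone r of these genes with their set was 0.933 to 0.992.

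Other genes of the program were followed by lists. Of 13 other late granule genes, 11 were higher in WT T-ALL than in thymus and 0 lower, against 29.3% of all genes called higher, with a median change of 2.75 against 0.08 for all genes, led by Wfdc21 (3.58 ± 0.80), Ifitm6 (3.49 ± 0.74), Hp (3.36 ± 0.76) and Chil3 (3.16 ± 1.00). Of 5 tested other primary granule genes, 2 were higher, Ms4a3 (2.95 ± 0.71) and Fcnb (2.71 ± 0.67), with a list median of 0.45. Thymus held Srgn and Ctsc, which many leukocytes express, at 6.04 to 6.83 and 4.05 to 4.89, and Bpi did not pass the filter on low values. Of 5 subunits of the NADPH oxidase, which makes superoxide, 3 were higher (Cybb 2.18, Ncf1 2.00, Ncf4 1.95). Of 10 surface and late-stage genes of mature neutrophils 7 were higher, led by Ly6g (3.15 ± 0.76), Retnlg (2.95 ± 0.68), Fpr2 (2.73 ± 0.64) and Stfa2l1 (2.32 ± 0.65). In Notch3 KO T-ALL against thymus 4 of 13 other late granule genes passed (Wfdc21 3.06, Ifitm6 2.92, Slpi 2.73 and Olfm4 2.57), and 0 of 5 primary granule, 0 of 5 oxidase and 0 of 10 mature neutrophil genes, with list medians of 2.35, -0.06, 1.53 and 1.29, against 21.2% of all genes called higher.

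Among factors of granulopoiesis, Cebpe, needed for secondary granules, was higher in WT T-ALL than in thymus by 2.13 ± 0.67, Spi1 by 1.53 ± 0.52 and Cebpd by 1.18 ± 0.43, while Cebpa did not pass. Gfi1, which thymocytes express too, was lower by 0.60 on the log2 scale (-0.60 ± 0.18), and in Notch3 KO T-ALL by 0.72 (-0.72 ± 0.26). Cebpe followed the tumors with the highest members, at 6.76 in WT T-ALL 110 and 4.39 in WT T-ALL 108 against 0.28 to 3.67 in the other 12. Of 6 tested other S100 genes, S100a1 (2.31 ± 0.44) and S100a6 (1.88 ± 0.78) were higher and S100a10 (-3.31 ± 0.55) lower, shares close to those of all genes (29.3% higher, 51.6% called). Tlr4 and Ager, receptors of the S100 proteins, did not pass in any comparison. Of 5 tested inhibitors of the granule proteases, Serpinb1a (2.15 ± 0.74), Serpina3g (2.02 ± 0.55) and Slpi (1.81 ± 0.53) were higher in WT T-ALL, and Slpi (2.73 ± 0.77) and Serpina3g (2.07 ± 0.79) in Notch3 KO T-ALL. Adjusted p of the genes called in these lists of the neutrophil program was 3.61e-05 to 0.0485 for WT T-ALL against thymus, and 0.00134 to 0.0425 for Notch3 KO T-ALL, by the same limma fits. Of the 29 genes of these lists called higher in WT T-ALL 14 had passed the filter on low values through the leukemic libraries alone, among them Ms4a3, Fcnb, Ly6g, Fpr2, Stfa2l1, Cebpe and Cebpd, and so had 3 of 6 in Notch3 KO T-ALL (Olfm4, Slpi and S100a1), so a rise of these was favoured by the filter. Between the T-ALL groups 0 genes of these lists passed, and 0 of 49 tested had an unadjusted p below 0.05 by limma, against 8.51% of all genes tested.

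Genes of some other spleen cell types rose alongside the members, and their part in the members' rise was not tested. In WT T-ALL against thymus 8 of 9 erythroid genes, 9 of 10 macrophage genes and 5 of 5 megakaryocyte genes were higher, against 29.3% of all genes, and 5, 2 and 5 of these had passed the filter through the leukemic libraries alone. Erythroid genes summed to 24.6 to 393 RPKM (thymus) and 758 to 52043 (WT T-ALL), macrophage genes to 9.66 to 63.4 and 23.5 to 399, and megakaryocyte genes to 0.705 to 1.27 and 4.18 to 200.2. Of 6 tested eosinophil genes 2 were higher (Ear2 and Ccr3), a share close to the 29.3% of all genes. Of 4 tested basophil and mast cell genes 2 were higher (Mcpt8 and Prss34). Ccr3, Mcpt8 and Prss34 also passed the filter through the leukemic libraries alone. Of 4 genes of monocytes, which also make S100A8 and S100A9, 0 were higher and F13a1 was lower (-2.75 ± 0.30), with sums of 52.6 to 72.7 RPKM (thymus) and 5.81 to 161 (WT T-ALL). Of 4 B cell genes 4 were lower. Of 10 T lineage genes 6 were lower (Cd4, Rag1, Cd8b1, Cd8a, Dntt and Lck) and 4 were not called (Cd3d, Cd3e, Cd3g and Cd2). Of all genes tested 51.6% were called in either direction and 29.3% higher. In Notch3 KO T-ALL against thymus 9 of 9 erythroid, 10 of 10 macrophage and 5 of 5 megakaryocyte genes were higher, against 21.2% of all genes and again with 5, 2 and 5 passing the filter through the leukemic libraries alone, with sums of 31518 to 103240, 279 to 413 and 60.9 to 185 RPKM. Between the T-ALL groups limma called 0 genes of these lists too. The lists of this section together held 98 tested genes, of which 49 were of the neutrophil program. An unadjusted p below 0.05 by limma was found for 16 of the 98 and for 0 of these 49, against 8.51% of all genes tested. All 16 were erythroid, megakaryocyte or macrophage genes.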

How the data were processed

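RNA was measured in 23 mouse libraries (6 thymus, 14 WT T-ALL, 3 Notch3 KO T-ALL), grouped by the labels. By the study's methods, stranded mRNA libraries were mapped to the mm10 transcriptome with OSA in ArrayStudio. The authors deposited 1 table of log2 values, whose columns start at 0 and share a 75th percentile (3.458 to 3.459), as log2(RPKM + 1) does once RPKM is scaled to 10.0 at that percentile. Counts and depths per library are not given, so no interval or floor that needs them was computed. The table holds 24475 genes, and 27 symbols that had become dates were restored by gene identifier.

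Genes reaching a scaled RPKM of 1 in 3 or more fitted libraries entered limma 3.58.1 (R 4.3.3, lmFit and eBayes, trend and robust on), run on the values as deposited, which left 11919 genes with all 3 groups in the fit and 11677 with the T-ALL groups alone. All 10 members passed this filter. P-values were adjusted over all genes (Benjamini-Hochberg) and called under 0.05. Mean differences of single members were also given an exact permutation p, two-sided (SciPy 1.17.1 and NumPy 2.4.6 in Python 3.11.15), and pairs of members by permutation tests of r and rho. Both kinds of test were tested on simulated data. Up to 4 called genes with the largest change were named per list and comparison, and the 5 genes, predicted genes aside, most like each set in r. Further values in single libraries and the libraries contrasted by stage were chosen after their values were seen.

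Alternatives were an offset of 0.1 or 0.01, other filters, quantile normalization, other limma settings, fits of other groups, each library left out, a replicate block, and, added after seeing the data, the 2 library sets. The members and lists were chosen with earlier results of these data known. Replicate numbers did not pair samples. Promoters and positions came from RefSeq and GENCODE on GRCm38.p6, the build also named mm10. The progenitor gene list is not reported here.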

Additional observations from a re-analysis of the deposited data

How the results depend on the processing

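The call of 10 of 10 members in WT T-ALL against thymus held in all 31 limma alternatives, among them offsets of 0.1 and 0.01, no filter, quantile normalization and each library left out. By the exact permutation test it held except within library set A, where 0 of 10 passed because 4 against 2 libraries cannot go below 0.0667. For Notch3 KO T-ALL against thymus the 5 calls were not stable: 8 members were called with an offset of 0.1 and 8 with 0.01, 3 without a filter, 9 with only the 2 groups fitted, 10 with the library set as a term, 2 within set A, and 0 to 10 with each library left out. The exact count of 4 went from 4 to 10 with each library left out (10 without Notch3 KO T-ALL 2) and was 0 within set A, where the smallest p is 0.1. The causes of these moves were not tested, beyond the limits of sample size named. Between the T-ALL groups 0 of 10 were called in every alternative, while the difference of the means changed sign. With each library left out it ran from -1.86 to 0.31 (Elane), -1.16 to 0.61 (Mpo), -1.68 to 0.18 (Prtn3), -1.72 to 0.10 (Ctsg), -1.74 to 0.95 (Ltf), -1.88 to 0.95 (Camp), -1.97 to 0.73 (Ngp), -1.80 to 0.71 (Lcn2), -1.004 to 1.56 (S100a8) and -1.81 to 0.99 (S100a9), turning positive for 10 of 10 without Notch3 KO T-ALL 2, and for S100a8 also without WT T-ALL 108 (0.10) or 110 (0.27). With the set as a term, and within set A, it was 0.89 (Elane), 1.03 (Mpo), 0.53 (Prtn3), 0.96 (Ctsg), 0.42 (Ltf), 0.17 (Camp), 0.30 (Lcn2), 1.14 (S100a8) and 0.52 (S100a9), while Ngp stayed negative at -0.06. The late minus early mean of thymus moved to 3.62 with an offset of 0.1, and the 45 correlated pairs stayed 45. Labels of different groups share some numbers, but samples with the same number did not deviate together (correlations of -0.235 to 0.151). With the number as a replicate block over the libraries whose numbers occur in both groups, 10 of 10 members were called in WT T-ALL against thymus and 0 in Notch3 KO T-ALL against thymus. No paired analysis was possible between the T-ALL groups because they share 1 number. Read depth is given only as an approximate number per sample. How far low values, such as those of early genes in thymus, lie above the counting limit of each library was therefore not computed.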
